A study of Mus musculus with 15 samples.

Results

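The transforming growth factor-β (TGF-β) pathway and the inhibitor of DNA binding (*Id*) genes were described in BV2 cells, an established mouse microglial line. The set holds 10 genes, *Id1*, *Id2*, *Id3*, *Tgfb1*, *Tgfbr1*, *Tgfbr2*, *Smad3*, *Smad6*, *Smad7* and *Skil*, and was found by gene symbol among the 54390 genes of the tables. These genes were selected on their values in the same libraries, so their levels and fold changes are given below as a description and no test is made on them. RNA was sequenced from 15 libraries in 4 groups. WT cells gave 4 non-foamy and 4 foamy libraries, and Trem2-/- cells gave 3 non-foamy and 4 foamy libraries. Foamy cells were left overnight in 20 μg/ml soluble cholesterol, a complex with methyl-beta-cyclodextrin, and non-foamy cells had media alone, so cholesterol and its carrier cannot be told apart. The Trem2-/- cells came from a line of BV2 that carries Cas9 and was grown from 1 clone, into which a *Trem2* guide was brought before cells were cloned by limiting dilution. How many clones were sequenced is not given in the sources used here, and effects of clone and of genotype cannot be told apart. Nothing in the labels says that libraries of a group came from separate cultures, so the spread between them may be technical, and p-values measure only that spread.

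TGF-β is a secreted cytokine that binds the type II receptor TGFBR2, which brings in and activates the type I receptor TGFBR1. The receptor pair phosphorylates SMAD2 and SMAD3, which enter the nucleus with SMAD4 and act on target genes, while SMAD6 and SMAD7 inhibit signaling and SKIL (SnoN) represses transcription by SMADs. ID proteins have a helix-loop-helix domain but no DNA-binding region, and they hold E proteins and other basic helix-loop-helix (bHLH) factors away from DNA. *Id* genes are classical targets of bone morphogenetic proteins (BMPs), which signal through SMAD1 and SMAD5, and TGF-β can raise or lower them depending on the cell. In the brain, TGF-β maintains the adult microglial program.

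The libraries held 23538963 to 41683825 counted reads, with at least 32736278 in WT foamy, 29416682 in Trem2-/- non-foamy and 29353996 in Trem2-/- foamy libraries. Levels are given as CPM, which are counts relative to library size, after TMM scaling, which corrects library size for differences in composition. *Trem2* itself averaged 354 ± 41.2 CPM (mean ± SD) in the 4 WT non-foamy and 373 ± 26.4 CPM in the 4 WT foamy libraries. It averaged 222 ± 8.79 CPM in the 3 Trem2-/- libraries without cholesterol and 224 ± 4.56 CPM in the 4 with it. The transcript fell in Trem2-/- cells by 0.67 on the log2 scale without cholesterol (SE 0.0778, adjusted p = 2.85e-07, edgeR) and by 0.73 with it (SE 0.0712, adjusted p = 7.09e-08). Transcript counts do not measure the protein, and an edit by Cas9 need not remove the transcript. The paper reports loss of the protein in its Trem2-/- BV2 cells by flow cytometry after cholesterol treatment. The macrophage identity of the line was seen in the marker genes. Of 13 microglia and macrophage markers, 12 were tested and 1, *Sall1*, was at 0, and *Tyrobp* was the most abundant, at a mean of 1496 CPM. Their summed level was 3614 to 4484 CPM in the WT libraries and 5463 to 5894 CPM in the Trem2-/- libraries, without overlap. All libraries are of the BV2 line, and bulk RNA does not tell more cells that express a marker from more RNA per cell. All 6 fibroblast markers were at 0 in every library. The 4 endothelial markers summed to 4.64 to 9.88 CPM in WT and 1.91 to 4.42 CPM in Trem2-/- libraries, without overlap, and the 4 T cell markers to 0.484 to 1.26 and 1.15 to 3.09 CPM, with overlap. The most abundant of these, and the ones that were tested, were *Kdr*, a receptor for VEGF, and *Cd4*. *Kdr* fell in Trem2-/- cells by 2.01 on the log2 scale without (adjusted p = 4.64e-08, edgeR) and 0.83 with cholesterol (adjusted p = 0.00096), and its responses differed by 1.19 (adjusted p = 0.0166). *Cd4* rose by 1.66 (adjusted p = 0.00012) and 1.09 (adjusted p = 0.00428). Among oligodendrocyte markers, *Mbp* fell without cholesterol by 1.88 (adjusted p = 0.0118) and had 0.55 with it (adjusted p = 0.447). The part of these low levels in the results that follow was not tested.

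The *Id* genes lie on different chromosomes of GRCm38: *Id1* at chr2:152736251-152737410 on the plus strand, *Id2* at chr12:25093799-25097140 on the minus strand and *Id3* at chr4:136143497-136145755 on the plus strand. None of the 10 genes shares exonic bases with a neighboring gene in GENCODE M21. The RefSeq promoter table for GRCm38.p6 held windows of 300 bases (250 before and 50 after a transcription start) for 7 of the 10 genes, and had no entry for *Id1*, *Smad7* or *Skil*. Windows were searched on both strands for GTCT, the short SMAD-binding letters, their palindrome GTCTAGAC, the GC-rich GGCGCC bound by SMADs at BMP-responsive sites, the E-box CANNTG bound by the bHLH factors that ID proteins hold back, and CCAAT. GTCT is also contained in GTCTAGAC, where it is counted once per strand. *Id2* and *Id3* are the genes of the set whose libraries separated by cholesterol loading in both genotypes, and stretches of their windows are shown so that the letters can be compared. The *Id2* stretch is chr12:25096254-25096342 on the minus strand, upstream of the RefSeq start and intronic in a longer GENCODE transcript. The *Id3* stretches are chr4:136143646-136143669, chr4:136143744-136143767 and chr4:136143833-136143856 on the plus strand, within the first exon of the longest GENCODE transcript. *Smad6*, whose groups largely overlapped, is shown for contrast at chr9:64022045-64022074 on the minus strand, across its start. Capitals mark GTCT on either strand and the letters of the GC-rich and E-box motifs.
Id2: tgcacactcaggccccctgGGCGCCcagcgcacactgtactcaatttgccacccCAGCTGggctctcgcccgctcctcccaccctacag
Id3 match 1: cctcggcgtcAGACcagcctaagg
Id3 match 2: acccttggcgGTCTgttttgaata
Id3 match 3: tgctttaggtGTCTcttttcctcc
Smad6: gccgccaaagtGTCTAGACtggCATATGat

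The *Id2* window held GGCGCC once, at -231 from the start, CANNTG once at -196, GTCT once at -23 and CCAAT 3 times. The *Id3* window held GTCT 3 times, at -166, -68 and 22, and none of the other motifs. GTCTAGAC was found in the *Smad6* window alone among the 8 windows of these genes, at -4. Among all 32851 promoters of that length, 88% held GTCT, 72.3% held CANNTG, 37.4% held CCAAT, 11.9% held GGCGCC and 0.213% held GTCTAGAC. A match is a description of the letters and does not show a bound site.

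*Id2* was the most abundant of the 10 genes per kilobase of exon, at 48.7 CPM per kb in WT non-foamy cells, followed by *Id3* at 8.73, *Tgfb1* at 8.26, *Tgfbr1* at 5.01 and *Tgfbr2* at 3.72 CPM per kb. *Smad3* stood at 1.69 CPM per kb, *Skil* at 0.977, *Smad6* at 0.539, *Smad7* at 0.378 and *Id1* at 0.245. The pathway's ligand and both receptors were therefore within an order of magnitude of each other, and the inhibitory SMADs were lower.

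*Id2* went in opposite directions with cholesterol in the 2 genotypes. Its levels were 110.5, 117.8, 136.0 and 110.8 CPM in WT non-foamy libraries and 138.3, 168.0, 171.1 and 154.6 CPM in WT foamy libraries. In Trem2-/- cells they were 158.5, 174.4 and 155.6 CPM without cholesterol and 136.3, 124.6, 121.2 and 135.3 CPM with it. Every WT foamy library was above every WT non-foamy library, and every Trem2-/- foamy library was below every Trem2-/- non-foamy library. The means were 118.8 ± 11.96 CPM (SD, n = 4) and 158 ± 14.9 (n = 4) in WT cells without and with cholesterol, and 162.8 ± 10.2 (n = 3) and 129.3 ± 7.56 (n = 4) in Trem2-/- cells. In that order of means, Trem2-/- non-foamy and WT foamy libraries overlapped at the top, and Trem2-/- foamy and WT non-foamy libraries overlapped at the bottom, with a gap only between these pairs. The fitted log2 difference of foamy from non-foamy cells was 0.41 (SE 0.0762) in WT and -0.33 (SE 0.0819) in Trem2-/- cells. Trem2-/- cells were therefore above WT without cholesterol, by 0.46 (SE 0.0819), and below WT with it, at -0.29 (SE 0.0761).

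*Id3* separated all 4 groups. Its levels were 12.8, 15.9, 18.2 and 15.6 CPM in WT non-foamy libraries and 20.4, 22.5, 23.4 and 22.5 CPM in WT foamy libraries. In Trem2-/- cells they were 10.2, 9.99 and 11.98 CPM without cholesterol and 5.98, 8.52, 8.16 and 6.87 CPM with it. No library of one group lay within the range of another, and levels went down from WT foamy over WT non-foamy and Trem2-/- non-foamy to Trem2-/- foamy cells. In this order the means were 22.2 ± 1.25 (SD, n = 4), 15.6 ± 2.23 (n = 4), 10.7 ± 1.09 (n = 3) and 7.38 ± 1.18 CPM (n = 4). The log2 difference of foamy from non-foamy cells was 0.51 (SE 0.111) in WT and -0.54 (SE 0.128) in Trem2-/- cells. Against WT, Trem2-/- cells differed by -0.54 (SE 0.125) without cholesterol and by -1.59 (SE 0.117) with it, which is 0.332 of the WT level. The log2 response in Trem2-/- cells minus that in WT cells was -1.05 (SE 0.17) for *Id3* and -0.74 (SE 0.112) for *Id2*.

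**Figure D1:**
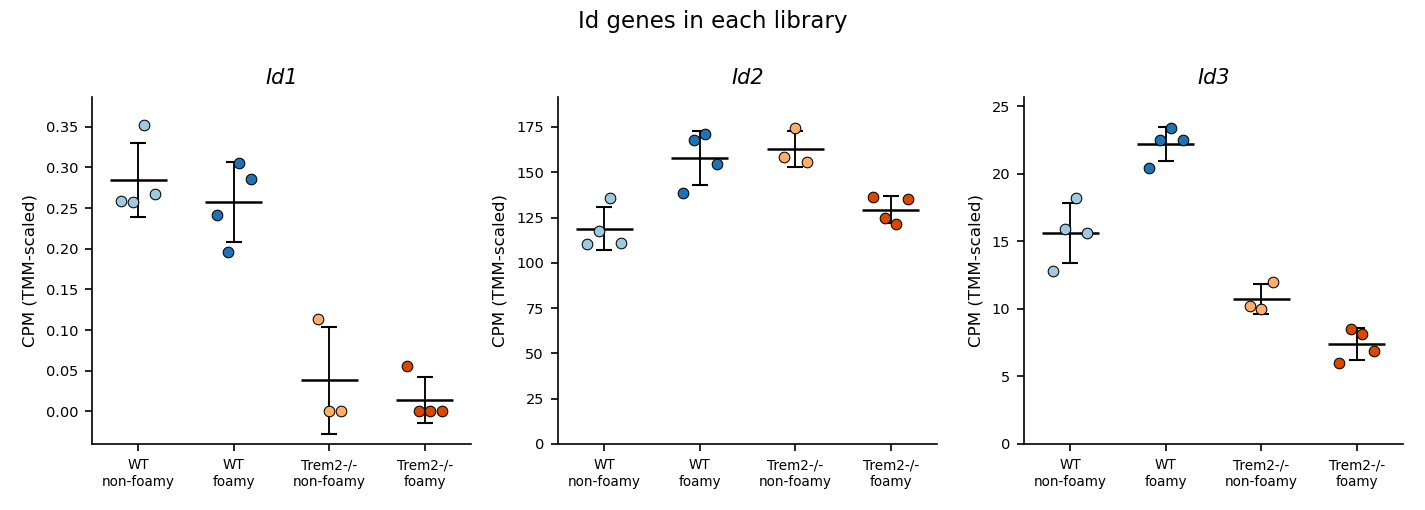
CPM after TMM scaling (linear vertical axes) of Id1, Id2 and Id3 in the 15 libraries by group. Points are libraries, horizontal lines are means and bars are SD (n = 4, 4, 3 and 4); Id3 separates all 4 groups, with WT foamy libraries at 20.4 to 23.4 CPM and Trem2-/- foamy libraries at 5.98 to 8.52 CPM, while Id2 is highest in Trem2-/- non-foamy and WT foamy cells.

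The balance between these genes separated the genotypes. In WT cells the ratio of *Id2* to *Id3*, both in CPM per kb, was 5.62 ± 0.5 (SD, n = 4) without and 5.22 ± 0.243 (n = 4) with cholesterol. In Trem2-/- cells it was 11.2 ± 1.65 (n = 3) and 13.2 ± 2.92 (n = 4). The WT libraries ranged from 4.97 to 6.35 and the Trem2-/- libraries from 9.54 to 16.7. Within each genotype the ratios of foamy and non-foamy libraries overlapped.

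**Figure D2:**
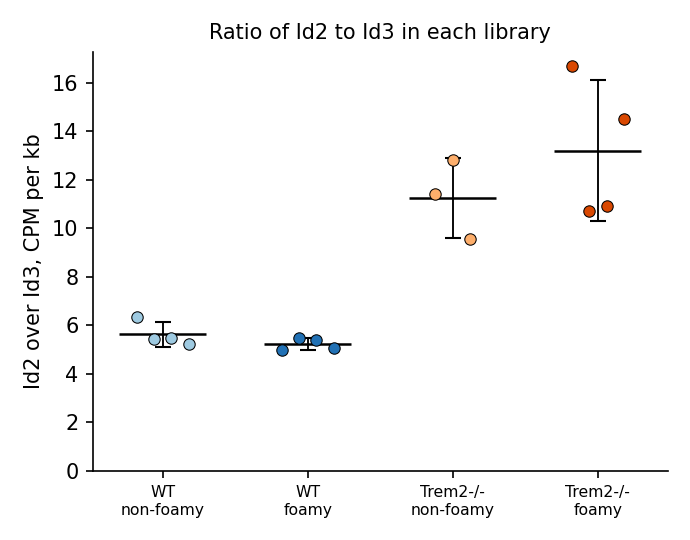
Ratio of Id2 to Id3 in CPM per kb of exon (vertical axis, from 0) in each library, by group. Points are libraries, lines are means and bars are SD (n = 4, 4, 3 and 4); all WT libraries lie at or below 6.35 and all Trem2-/- libraries at or above 9.54.

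*Id1* was near the limit of detection. WT non-foamy libraries held 10, 8, 8 and 12 reads and WT foamy libraries 10, 8, 10 and 10 reads, whereas Trem2-/- libraries held 4, 0 and 0 reads without cholesterol and 2, 0, 0 and 0 reads with it. All WT libraries were above all Trem2-/- libraries. The gene did not pass the filter on low counts and has no fitted fold change. Over the group totals, scaled to library size, WT exceeded Trem2-/- 6.44 times without cholesterol (38 against 4 reads). With cholesterol the ratio was 16 (38 against 2 reads). The ratio of WT foamy to WT non-foamy cells was 0.915 (38 reads in each). These ratios pool the libraries of a group, rest on few reads and are a description without a test. Of gene counts from 1 to 20, 80.8 to 82.1% in each library were even, as when both mates of a pair are counted. Fragments may thus be fewer than the reads given. *Id4*, the remaining *Id* gene, had 0 reads in every library.

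The ligand *Tgfb1* (chr7:25687002-25705077, plus strand) varied less. WT cells had 41.6 ± 3.41 CPM (SD, n = 4) without and 45.0 ± 3.06 (n = 4) with cholesterol, and Trem2-/- cells had 35.7 ± 4.86 (n = 3) and 36.3 ± 5.02 (n = 4). With cholesterol, the WT libraries (49.2, 43.3, 42.2 and 45.4 CPM) were all above the Trem2-/- libraries (36.2, 38.7, 41.0 and 29.4 CPM), with a log2 difference of Trem2-/- from WT of -0.31 (SE 0.0946). Without it the genotypes overlapped, at -0.23 (SE 0.103).

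*Tgfbr1* (chr4:47353222-47414931, plus strand), the type I receptor, was lowest in WT non-foamy cells, at 32.0, 32.7, 32.9 and 33.2 CPM. It was 37.6, 41.5, 36.8 and 37.3 CPM in WT foamy, 43.4, 39.5 and 43.8 CPM in Trem2-/- non-foamy and 42.0, 39.0, 36.5 and 45.2 CPM in Trem2-/- foamy libraries. WT non-foamy cells thus stood apart from the other 3 groups, which overlapped in order of their means. The log2 difference was 0.23 (SE 0.0708) for foamy against non-foamy WT cells and 0.37 (SE 0.0763) for Trem2-/- against WT without cholesterol. For *Tgfbr2*, the type II receptor, no pair of groups compared was apart, and means ran from 30.4 ± 2.74 CPM (SD, n = 4) in WT non-foamy to 35.4 ± 5.35 (n = 4) in WT foamy cells.

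Of the SMAD genes, *Smad3* had means from 7.59 ± 0.677 CPM (SD, n = 4) in Trem2-/- foamy to 9.34 ± 1.39 (n = 4) in WT non-foamy cells, and every pair of groups compared overlapped. *Smad6*, an inhibitory SMAD, had 14 to 88 reads in the libraries, with means from 1.42 ± 0.258 CPM (SD, n = 3) in Trem2-/- non-foamy to 1.74 ± 0.536 (n = 4) in WT foamy cells. Its Trem2-/- non-foamy libraries (1.54, 1.12 and 1.59 CPM) were below the WT non-foamy libraries (1.89, 1.61, 1.76 and 1.65 CPM) by less than the standard error of the fit, with a log2 difference of -0.28 (SE 0.345). *Smad7*, the other inhibitory SMAD and itself induced by TGF-β, had means of 1.71 ± 0.723 (SD, n = 4) and 2.10 ± 0.558 CPM (n = 4) in WT cells without and with cholesterol and of 2.32 ± 0.62 (n = 3) and 2.70 ± 0.305 CPM (n = 4) in Trem2-/- cells, and its groups overlapped. *Skil* (chr3:31095058-31122577, plus strand), the SMAD corepressor, stood at 9.08, 9.86, 9.73 and 9.24 CPM in WT non-foamy and 9.83, 10.3, 11.3 and 11.9 CPM in WT foamy libraries, against 8.38, 7.14 and 8.34 CPM in Trem2-/- non-foamy and 7.40, 7.60, 8.83 and 9.73 CPM in Trem2-/- foamy libraries. Trem2-/- libraries were below WT in both states, with log2 differences of -0.25 (SE 0.116) without and -0.37 (SE 0.106) with cholesterol.

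**Figure D3:**
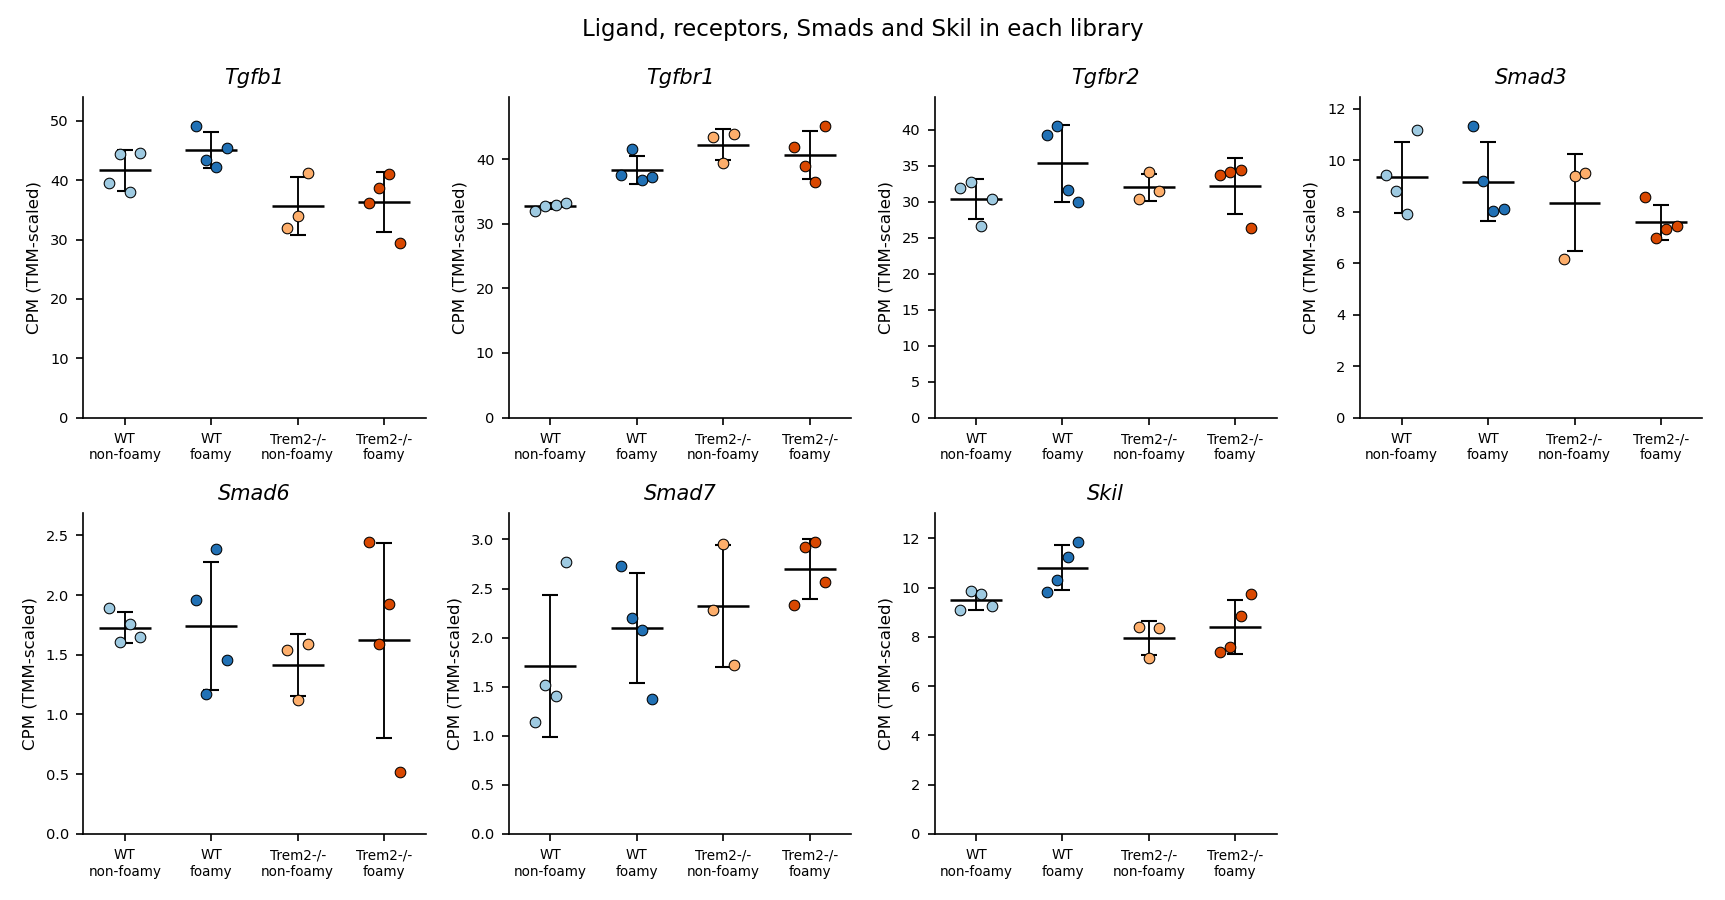
CPM after TMM scaling (linear vertical axes from 0) of Tgfb1, Tgfbr1, Tgfbr2, Smad3, Smad6, Smad7 and Skil in the 15 libraries by group. Points are libraries, lines are means and bars are SD (n = 4, 4, 3 and 4); WT non-foamy libraries lie lowest for Tgfbr1, at 32.0 to 33.2 CPM, and for Skil the Trem2-/- libraries lie below the WT libraries of the same state.

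Counted over the set, the libraries of foamy and non-foamy cells did not overlap for 3 of 10 genes in WT cells (*Id2*, *Id3* and *Tgfbr1*, all higher in foamy cells), beside 9.71% of all 14237 tested genes. In Trem2-/- cells they did not overlap for 2 of 10 (*Id2* and *Id3*, both lower in foamy cells), beside 9.26%. The genotypes did not overlap for 6 of 10 genes without cholesterol, beside 46.1%, with *Id2* and *Tgfbr1* higher and *Id1*, *Id3*, *Smad6* and *Skil* lower in Trem2-/- cells. Of the 9 genes that were tested, as the background was, these were 5. With cholesterol they did not overlap for 5 of 10, beside 28.8%, and *Id1*, *Id2*, *Id3*, *Tgfb1* and *Skil* were all lower in Trem2-/- cells, which makes 4 of the 9. These counts describe genes chosen on these same contrasts. The comparisons of one state between genotypes and of one genotype between states share libraries. Scaling by total counts alone, in place of TMM, moved the median log2 difference of all genes between genotypes by -0.14 without and -0.13 with cholesterol. It turned the sign for *Tgfbr2* without cholesterol, from 0.07 to -0.07, and for *Tgfbr1* with cholesterol, from 0.09 to -0.05.

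**Figure D4:**
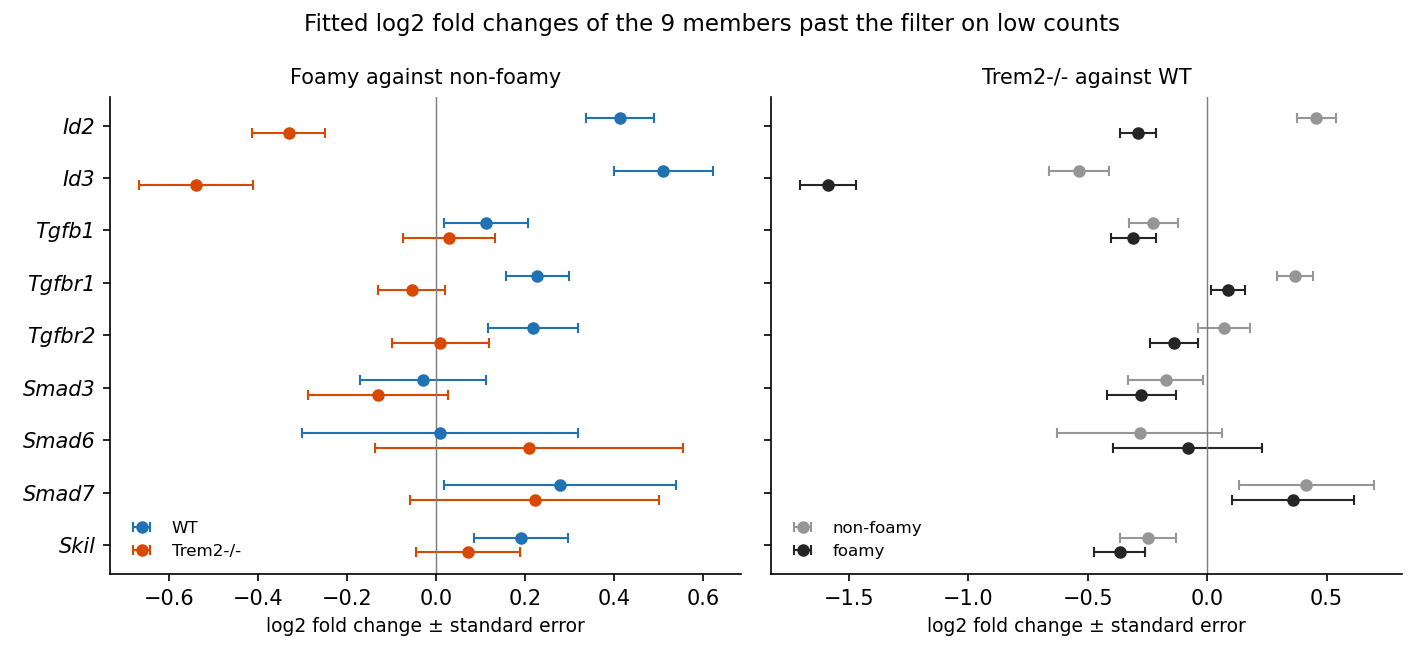
Fitted log2 fold changes with standard errors (horizontal axes) of the 9 genes that passed the filter on low counts, for foamy against non-foamy cells in each genotype (left) and Trem2-/- against WT cells in each state (right). Points are estimates and bars are standard errors from the fit over 15 libraries; Id2 and Id3 lie on opposite sides of 0 in the 2 genotypes, at 0.41 and -0.33 and at 0.51 and -0.54.

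The genes whose log2 CPM followed each of these genes most closely over the 15 libraries were found by Pearson's r, as a description across libraries that share groups and depth. For *Id2* they were *Tmem154* (r = 0.88) and *Snx7* (r = 0.85), and with group means removed r was 0.72 and 0.88. For *Id3* they were *Mr1* (r = 0.93), which encodes an antigen-presenting molecule for vitamin B metabolites, and *Plk2* (r = 0.92), a polo-like kinase, and r was 0.20 and 0.33 with group means removed. *Mr1* had means of 30.3 ± 2.69 and 36.6 ± 2.98 CPM (SD, n = 4 each) in WT cells without and with cholesterol and of 10.9 ± 1.05 (n = 3) and 9.17 ± 1.03 CPM (n = 4) in Trem2-/- cells. *Tgfb1* was most like *Samd4b* (r = 0.96) and *H6pd* (r = 0.94), *Tgfbr1* most like *Ropn1l* (r = 0.96) and *Ifi207* (r = 0.92), and *Skil* most like *Tmem18* and *Calr3* (r = 0.90 for each). *Tgfbr2* was most like *Ell* (r = 0.88), *Smad3* like *Ptger4* (r = 0.86), *Smad6* like *Leng9* (r = 0.83) and *Smad7* like *5031434O11Rik* (r = 0.82). *Id2* and *Id3* themselves had r = 0.25.

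Other genes of the pathway were counted from 8 lists that do not contain the 10 genes. The lists hold 116 genes, of which 66 were tested, 28 had 0 reads in every library and 42 had no library with more than 3 reads. Genes at 0 included the ligands *Bmp4*, *Bmp5*, *Bmp6* and *Bmp7*, the BMP antagonist *Nog*, the coreceptor *Tgfbr3*, *Smad9* and the TGF-β-induced *Ccn2*, *Pmepa1* and *Fn1*. Of 15 BMP ligands and antagonists, only the BMP-binding *Twsg1* was tested. Calls are edgeR results with an adjusted p under 0.05, where Benjamini-Hochberg adjustment covers all 14237 genes.

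In WT cells, 1 of the 66 genes rose and 1 fell with cholesterol in edgeR, whereas the DESeq2 Wald test called 8 higher and 1 lower, and edgeR with no filter on low counts called 4 higher and 1 lower. Over all genes, DESeq2 called 423 higher and 473 lower, and edgeR with no filter called 359 higher and 248 lower. *Mertk*, a receptor kinase for clearing dead cells that depends on TGF-β in microglia, averaged 29.3 ± 2.82 CPM (SD, n = 4) in non-foamy and 43.7 ± 5.94 (n = 4) in foamy cells and rose by 0.57 on the log2 scale (SE 0.0821, adjusted p = 0.000279). *Cdkn1a*, the cell cycle inhibitor p21 and a TGF-β target, averaged 69.7 ± 3.97 and 55.4 ± 1.93 CPM and fell by 0.33 (SE 0.0656, adjusted p = 0.00625). Among all tested genes, edgeR with the filter called 1.66% higher and 1.14% lower. The median log2 fold change over the 66 genes was 0.07, beside 0.01 over all tested genes. In Trem2-/- cells none of the 66 genes was called, where 0.105% of all genes were called higher and 0.0351% lower. The DESeq2 Wald test also called 0. At an unadjusted p under 0.05 (edgeR) there were 4 of the 66 genes in Trem2-/- cells and 16 in WT cells. The share of all genes at that threshold is not given here.

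The responses of the genotypes differed for 5 of the 66 genes by the test of the interaction, 1 higher and 4 lower in Trem2-/- cells, beside 1.99% and 1.64% of all genes. The difference in log2 response was -0.73 (SE 0.119, adjusted p = 0.00099) for *Mertk*, which averaged 69.1 ± 2.08 CPM (SD, n = 3) and 61.8 ± 1.40 (n = 4) in Trem2-/- cells without and with cholesterol. It was -0.46 (SE 0.0929, adjusted p = 0.00737) for *Bhlhe40*, a transcriptional repressor induced by TGF-β, with 71.6 ± 5.81 and 83.0 ± 5.13 CPM in WT cells without and with cholesterol and 126.7 ± 1.24 and 107 ± 4.51 CPM in Trem2-/- cells. It was -0.34 (adjusted p = 0.0225) for *Twsg1* and -0.43 (adjusted p = 0.0439) for *Nedd4l*, a ubiquitin ligase for SMAD2 and SMAD3. For *Cdkn1a* it was 0.44 (adjusted p = 0.0132). The call was lost for *Cdkn1a* without Trem2-/- non-foamy replicate 1 (adjusted p = 0.0579) and for *Twsg1* without WT foamy replicate 2 or Trem2-/- non-foamy replicate 2 (up to 0.0856). For *Nedd4l* it was lost in 14 of 21 alternatives, among them total counts alone and leaving out any Trem2-/- library, WT foamy replicates 1, 2 or 3 or WT non-foamy replicates 1 or 3, with an adjusted p of up to 0.136.

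More of these genes were called between Trem2-/- and WT cells than for the cholesterol responses, as was also so over all tested genes. Without cholesterol, 20 of the 66 were higher and 11 lower in Trem2-/- cells, beside 21% and 22.6% of all tested genes, and with cholesterol 13 were higher and 8 lower, beside 14.3% and 15.9%. The lower calls with cholesterol numbered 2 without WT foamy replicate 1 and 4 without Trem2-/- foamy replicate 4, with 14 higher in each fit. They numbered 5 without WT foamy replicate 2 or Trem2-/- foamy replicate 1, with 12 higher in each fit. With total counts alone as the scaling the calls were 13 higher and 15 lower without and 9 higher and 14 lower with cholesterol. Over all genes, TMM gave 2985 higher and 3222 lower calls without and 2036 and 2261 with cholesterol, and total counts gave 1820 and 4379, and 1115 and 3666. For the cholesterol response in WT cells this scaling gave 179 higher and 249 lower in place of 237 and 162, and for the difference between the responses 397 and 168 in place of 284 and 234.

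On the list of bHLH partners of ID proteins, all 6 tested genes were called without cholesterol. In Trem2-/- cells 4 fell and 2 rose, and the median log2 difference was -0.32 beside 0.02 over all tested genes, and with cholesterol 3 fell and 2 rose, with a median of -0.27 beside 0.00. The E proteins, which are the main partners, did not move together. *Tcf3* (E2A) fell by 0.55 without cholesterol (SE 0.144, adjusted p = 0.00316) and by 0.38 with it (SE 0.131, adjusted p = 0.0301), and *Tcf4* (E2-2) fell by 0.27 (SE 0.0812, adjusted p = 0.00946) and 0.46 (SE 0.0747, adjusted p = 6.05e-05). *Tcf12* (HEB) rose by 0.60 (SE 0.0677, adjusted p = 1.98e-07) and 0.35 (SE 0.063, adjusted p = 0.000205), from 144 ± 3.01 CPM (n = 4) in WT to 218.1 ± 2.91 (n = 3) in Trem2-/- non-foamy cells. The hematopoietic factor *Tal1* fell by 0.41 (SE 0.117, adjusted p = 0.00669) and 0.35 (SE 0.107, adjusted p = 0.0162). *Lyl1*, its relative, fell by 0.38 without cholesterol (SE 0.0829, adjusted p = 0.000769), and with cholesterol its log2 fold change was -0.20 (adjusted p = 0.0541). *Hey1*, which is also on the list of genes induced by BMP, rose by 1.56 (SE 0.22, adjusted p = 4.35e-06) and 0.63 (SE 0.198, adjusted p = 0.0183) from a low level of 1.16 ± 0.0526 CPM. With cholesterol, calls were lost for *Tcf3* without WT foamy replicates 1, 2 or 3 or Trem2-/- foamy replicates 1, 3 or 4 (adjusted p up to 0.116), for *Tal1* without WT foamy replicate 1 (0.0652), and for *Hey1* with total counts alone or without WT foamy replicates 2 or 4 or Trem2-/- foamy replicate 3 (up to 0.0759).

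Among receptors and coreceptors, 2 of 10 tested genes rose in Trem2-/- cells without cholesterol and 3 with it, and none fell. *Cd109*, a TGF-β coreceptor that dampens signaling, rose by 1.23 (SE 0.139, adjusted p = 2.01e-07) and by 0.65 (SE 0.128, adjusted p = 0.000495). *Bambi*, a decoy receptor, rose by 0.41 (SE 0.115, adjusted p = 0.00542) and by 0.62 (SE 0.107, adjusted p = 0.000122), where the first call was lost with total counts alone (adjusted p = 0.0621). *Bmpr1a*, a BMP type I receptor, had a log2 fold change of 0.20 with cholesterol (adjusted p = 0.0473), which was lost with total counts alone, with only the foamy libraries fitted and without WT foamy replicates 1, 2 or 4 or Trem2-/- foamy replicates 1 or 4 (adjusted p up to 0.394). Of 8 tested ligands and activation genes, *Furin*, a protease that processes TGF-β precursors, was the only one called, higher by 0.62 without cholesterol (SE 0.128, adjusted p = 0.000431). *Twsg1* rose by 0.57 (SE 0.0594, adjusted p = 6.09e-08) without and by 0.23 (SE 0.0553, adjusted p = 0.00274) with cholesterol, and the latter call was lost with total counts alone (adjusted p = 0.224).

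The tested signal-transducing SMADs of the lists showed no call, and *Smad3*, which belongs to the selected set, was given no test. *Smad2* had log2 fold changes of -0.17 and -0.11 in Trem2-/- against WT cells, *Smad4* of -0.11 and 0.01, and *Smad1* of -0.22 and -0.24 (adjusted p from 0.138 to 0.927). Of 18 tested SMADs, cofactors and ubiquitin regulators, 4 rose and 1 fell without cholesterol, and 1 rose and 1 fell with it. *Nedd4l* rose by 0.58 (SE 0.086, adjusted p = 9.3e-06), the corepressor *Tgif1* by 0.41 (SE 0.0791, adjusted p = 0.000194) and the ubiquitin ligase *Wwp1* by 0.33 (SE 0.0704, adjusted p = 0.000483) without cholesterol. *Wwp1* also rose with it, by 0.30 (SE 0.0653, adjusted p = 0.00138). *Trim33*, a ubiquitin ligase that can bind SMADs, had 0.27 (adjusted p = 0.00193), lost with total counts alone (adjusted p = 0.255). The deubiquitinase *Usp15* had -0.20 without cholesterol (adjusted p = 0.022), lost without WT non-foamy replicate 3 or Trem2-/- non-foamy replicates 2 or 3 (up to 0.0814), and the ubiquitin ligase *Wwp2* had -0.25 with it (adjusted p = 0.0432), lost without WT foamy replicates 1, 2 or 4 or Trem2-/- foamy replicates 1 or 4 (up to 0.162).

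Genes induced by TGF-β moved both ways. Of 10 tested, 5 rose and 3 fell in Trem2-/- cells without cholesterol, and the median log2 difference was 0.24. With it 2 rose and none fell, and the median was 0.17. *Bhlhe40* rose by 0.82 (SE 0.0679, adjusted p = 1.89e-09) and 0.37 (SE 0.0632, adjusted p = 0.000121). *Klf10*, an early TGF-β response gene, rose with cholesterol by 0.38 (SE 0.0788, adjusted p = 0.000742). *Cdkn1a* fell without cholesterol by 0.44 (SE 0.0718, adjusted p = 3.05e-05). The largest fold changes came from genes with few reads. *Col4a1* had 2.10 (adjusted p = 0.0446), lost in 8 of 13 alternatives, among them total counts alone and the fits without WT non-foamy replicates 1, 2 or 3 or any Trem2-/- non-foamy library, and *Cdkn2b* had -1.36 (adjusted p = 0.0475), lost in 7 of 14, among them the fit of the non-foamy libraries alone and the fits without WT non-foamy replicates 1 or 4 or any Trem2-/- non-foamy library (adjusted p up to 0.109 and 0.273). Of the others that rose without cholesterol, *Klf10* (adjusted p = 0.046) lost its call in 10 of 14 alternatives, *Junb* (adjusted p = 0.043) in 7 of 14 and *Tsc22d1* (adjusted p = 0.0183) in 2 of 14, and *Bhlhe40* in none.

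The microglial genes that depend on TGF-β in brain split into 2 directions. Of 11 tested, 5 rose and 3 fell in Trem2-/- cells without cholesterol, and the median log2 difference was 0.34. With it 4 rose and 4 fell, and the median was -0.05. The genes that fell were low in this line. *Cx3cr1*, the fractalkine receptor, stood at 1.54 ± 0.292 CPM (n = 4) in WT and 0.301 ± 0.0887 (n = 3) in Trem2-/- non-foamy cells and fell by 2.35 without cholesterol (SE 0.417, adjusted p = 7.61e-05). The purinergic receptor *P2ry12* fell by 1.51 (SE 0.305, adjusted p = 0.000302) and 1.12 (SE 0.265, adjusted p = 0.00254), and *P2ry13* by 1.13 without cholesterol (SE 0.258, adjusted p = 0.00108). *Olfml3* fell with cholesterol by 2.34 (SE 0.713, adjusted p = 0.0157), from 61 to 10 reads over the groups. It had a fit in only 11 of 15 alternatives and was called in each of those (adjusted p up to 0.0477). With cholesterol *P2ry13* had -0.63 (adjusted p = 0.0437), lost in 9 of 15 alternatives, among them no filter on low counts and the fits without WT foamy replicates 1, 3 or 4 or any Trem2-/- foamy library (adjusted p up to 0.123). *Cx3cr1* had -0.98 (adjusted p = 0.0401), which was lost in 7 of 15 alternatives, among them the fits without WT foamy replicates 1, 2 or 4 or Trem2-/- foamy replicates 2 or 4 and the fit of the foamy libraries alone (adjusted p up to 0.114). The genes that rose included *Mertk*, by 1.23 (SE 0.0873, adjusted p = 2.02e-10) and 0.50 (SE 0.0806, adjusted p = 5.84e-05), and *Gpr34*, a G protein-coupled receptor, by 0.70 (SE 0.184, adjusted p = 0.00353) and 0.66 (SE 0.171, adjusted p = 0.00515). *Csf1r*, the receptor for colony-stimulating factor 1, rose by 0.61 (SE 0.0912, adjusted p = 8.86e-06) and 0.31 (SE 0.085, adjusted p = 0.00691), the second lost with total counts alone (adjusted p = 0.219). The summed macrophage markers given above were also higher in Trem2-/- cells, and their part in these results was not tested. In each state 7 of the 12 tested markers were called higher, 1, *P2ry12*, lower and 4 not called, namely *Itgam*, *Spi1*, *C1qa* and *Tmem119*. *Csf1r*, *P2ry12*, *Tmem119* and *Sall1* are on both lists. *Tmem119*, a marker of adult microglia, stood at 0.374 ± 0.142 CPM (n = 4) in WT non-foamy cells, and *Sall1* was at 0.

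**Figure D5:**
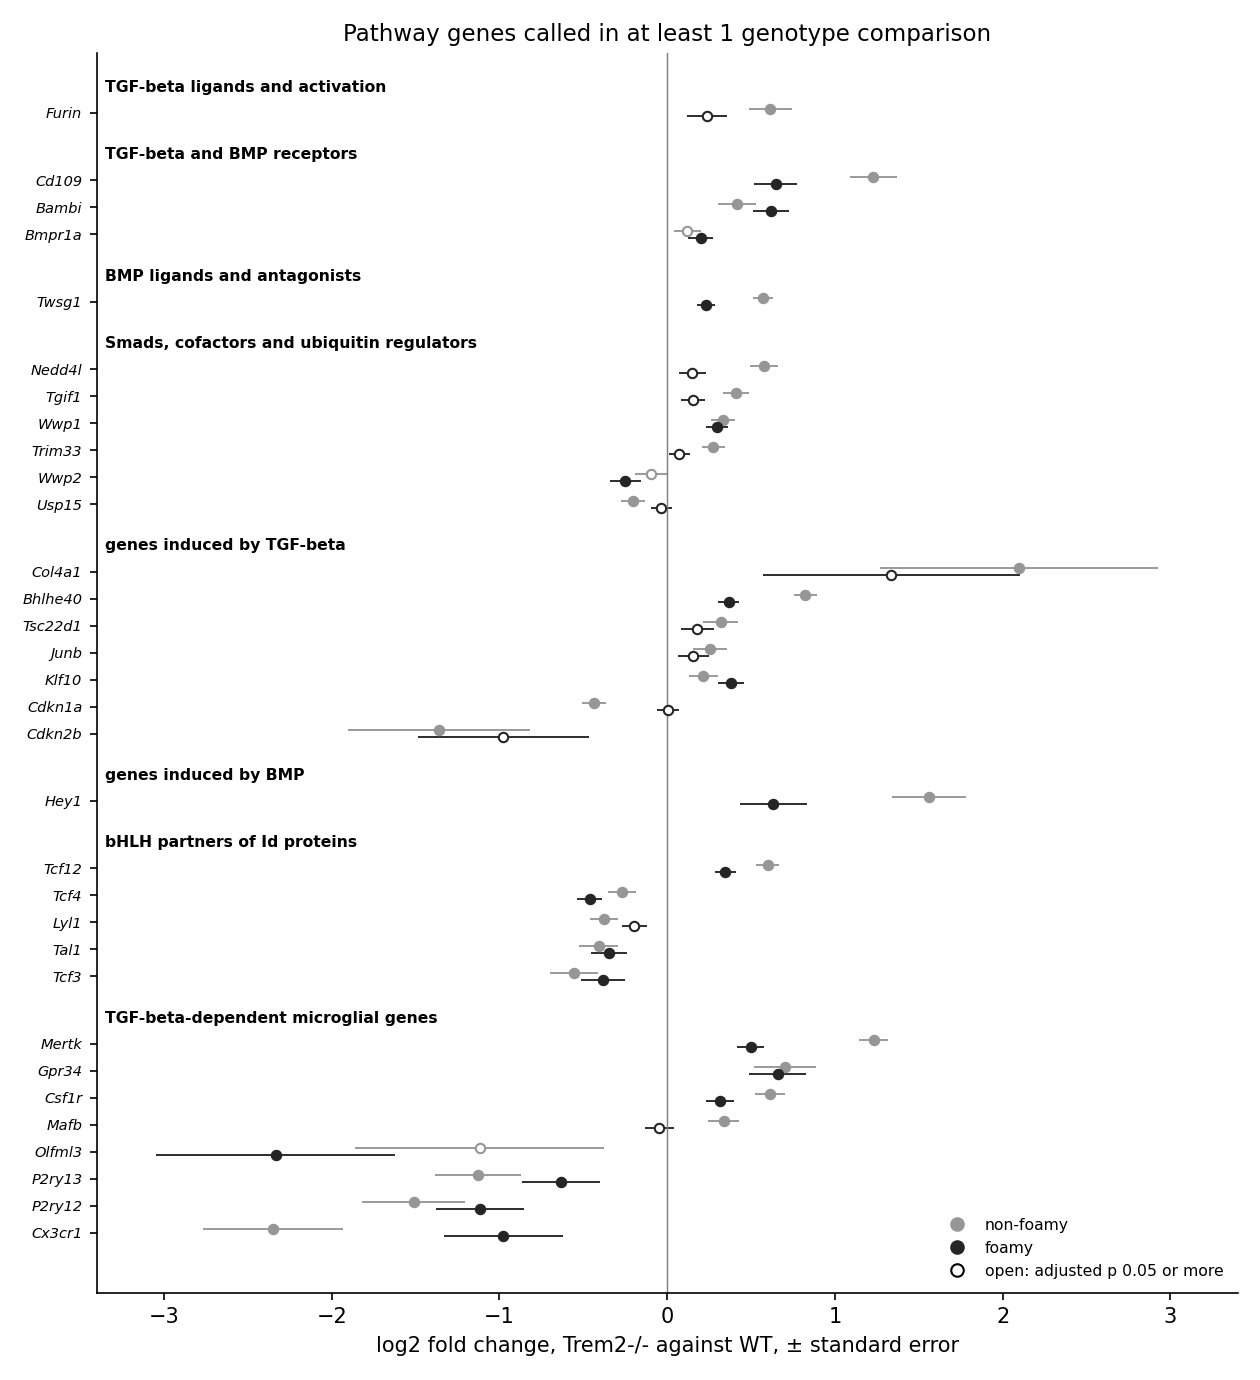
Log2 fold change with standard error (horizontal axis) of Trem2-/- against WT cells for 32 of the 34 pathway genes called in non-foamy or foamy cells, grouped by list (vertical axis). Gray points are non-foamy and black points foamy cells, and open points have an adjusted p of 0.05 or more (edgeR); Hey1 is drawn once though 2 lists hold it, and Cx3cr1, P2ry12 and P2ry13 lie left of 0 while Mertk and Gpr34 lie right of it.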

How the data were processed

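RNA of 15 BV2 libraries was measured by RNA-seq. The authors deposited raw read counts per gene, as whole numbers without normalization; per their methods, the CHURP pipeline ran Trimmomatic, HISAT2 (GRCm38) and featureCounts. Whether counting used strand or reads with several matches is not given in the sources used here. Here counts were fitted with edgeR 4.0.16 in R 4.3.3 (TMM factors 0.918 to 1.11, filterByExpr with a minimum count of 10, glmQLFit and glmQLFTest, 1 mean per group, all libraries), which left 14237 of 54390 genes with 99.97% of counts. The biological coefficient of variation was 10.2%. Chi-square per gene was 5.75 to 43.3 between libraries of a group, where counting error alone gives about 1.

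CPM per kb divides by the union of exons of GENCODE M21, and promoters come from RefSeq. The 10 genes, the lists and the rule for naming genes (the 10 genes, *Trem2*, up to 4 called genes per list with the largest fold change, and the 2 most alike genes) were chosen with earlier results of these data known. *Smad1*, *Smad2*, *Smad4*, *Klf10*, *Cdkn1a*, *Csf1r*, *Gpr34*, *Lyl1*, *Tmem119*, *Tgif1*, *Usp15*, *Junb*, *Tsc22d1* and *Wwp2* were named after their values were seen where they are outside that rule. The cell type markers that are named, among them *Kdr*, *Cd4* and *Mbp*, are not covered by that rule either. Alternatives were DESeq2 1.42.0, RLE factors, total counts alone, no filter, only the groups compared, a replicate block and each library left out; halved counts were added after seeing that most low counts are even. Single results of 3 genes on the lists are not reported here, though the counts by list include them. The other experiments of the study were not analysed here.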

Additional observations from a re-analysis of the deposited data

Results flagged for a closer look

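In 3 of the 30 groups of 4 libraries of the 10 genes, 1 library lay apart by the ratio of its gap to the group's range (Dixon), where chance gives about 1 in 20, and the ratio is given here as a description. *Id1* stood at 0.352 CPM in WT non-foamy replicate 3, from 8 reads, as many as replicate 2 had, in the smallest library of 23538963 reads. It stood at 0.0556 CPM in Trem2-/- foamy replicate 1, from 2 reads, where the others had 0, so that any read would set that library apart. *Tgfbr2* stood at 26.4 CPM in Trem2-/- foamy replicate 4, below the others.

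The response to cholesterol differed between the genotypes for several genes. For *Id2* and *Id3* every foamy library lay above the non-foamy libraries in WT cells and below them in Trem2-/- cells, with differences of the log2 responses of -0.74 and -1.05, and these differences were not tested because the genes were selected on these values. By the test of the interaction in edgeR (adjusted p under 0.05), the difference was -0.73 for *Mertk*, -0.46 for *Bhlhe40*, -0.34 for *Twsg1*, -0.43 for *Nedd4l* and 0.44 for *Cdkn1a*.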

How the results depend on the processing

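Over all genes, the 399 calls for the response in WT cells became 896 with the DESeq2 Wald test, 607 with no filter on low counts and 144 with only the groups compared. The 20 calls in Trem2-/- cells became 54 and 61 with DESeq2 and with no filter, and the 518 calls for the difference between the responses became 968 with DESeq2 and 294 with the replicate block. Among the pathway genes, 2 calls in WT cells became 9 with DESeq2, 5 with no filter and 4 with halved counts, and 5 calls for the difference became 8 with DESeq2. Leaving out each library in turn gave 146 (without WT foamy replicate 2) to 526 (without WT foamy replicate 4) calls in WT cells, 10 (without Trem2-/- non-foamy replicate 1) to 18 in Trem2-/- cells, 201 (Trem2-/- non-foamy replicate 1 left out) to 661 (WT foamy replicate 4 left out) for the difference, 5232 to 6380 between genotypes without and 3640 to 4192 with cholesterol. For pathway genes the ranges were 2 to 4 (4 without WT foamy replicate 4), 0 to 0, 3 to 6 (3 without WT foamy replicate 2, Trem2-/- non-foamy replicate 1, which left no higher call, or Trem2-/- non-foamy replicate 2), 26 to 30 and 16 to 21. Over all genes, other libraries also lowered a count by more than 1.5 times: WT non-foamy replicates 1 and 4 and WT foamy replicate 1 in WT cells (188, 220 and 243), Trem2-/- non-foamy replicate 2 and foamy replicates 1 and 3 in Trem2-/- cells (12, 13 and 11), and for the difference WT non-foamy replicate 1 (343), WT foamy replicate 2 (238), Trem2-/- non-foamy replicates 2 and 3 (227 and 273) and Trem2-/- foamy replicates 1 and 3 (276 and 336). Replicate numbers did not pair the libraries: same-numbered libraries had correlations of -0.0593 to 0.143 in WT and -0.0766 to 0.0278 in Trem2-/- cells, and of -0.0312 to 0.0287 and -0.0627 to 0.0095 between genotypes, and 2 of 4, 1 of 3, 1 of 3 and 0 of 4 correlated best with their own number. With the replicate block, calls were 312, 15, 5904, 4151 and 294 over all genes and 2, 0, 28, 19 and 4 among pathway genes. The block lost the calls of *Klf10*, *Cdkn2b*, *Junb* and *Col4a1* without cholesterol, of *P2ry13* and *Cx3cr1* with it and of *Nedd4l* for the difference. Of 711 values of the 9 fitted genes under alternatives, 5 moved by more than the spread. Over the alternatives, the calls of the pathway genes were recomputed 879 times, and the threshold was missed in 98 of these and the direction turned in none. Depth limits *Id1*, *Smad6*, *Smad7*, *Olfml3*, *Col4a1* and *Cdkn2b*, which rest on few reads.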
